A study of Mus musculus with 6 samples.

Results

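Sites of accessibility crowd together in the gene-rich stretches of mouse chromosomes, and the sites examined here are those of the most crowded stretches. Each of the tested sites on chromosomes 1 to 19 was assigned by its midpoint to a fixed 1 Mb bin, and all sites of the bins with 200 or more tested sites were taken. The rule used positions only and no measured level. It gave 91 bins, 3.80% of the 2395 autosomal bins that held a site, with 19741 of the 225604 autosomal sites (8.75%). ATAC-Seq, in which a transposase cuts open DNA, had been performed on primary mouse embryonic fibroblasts (MEFs) of strain background C57bl6. HAT1+/+ embryos gave 3 MEF lines (labelled HAT1 WT) and HAT1-/- embryos gave 3 (labelled HAT1 KO), all untreated and grown in DMEM with fetal bovine serum. Per the study's methods, MEFs were made from mid-gestation embryos without their internal organs, and the deletion is carried in all cells of a line. The deposited levels are the log2 mean of normalized reads over the lines of a genotype, so neither a value per line nor a spread between lines can be given, and no test between genotypes was made.

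HAT1 is the acetyltransferase that modifies newly made histone H4 before it is assembled into chromatin behind the replication fork. Transposase cuts mostly where nucleosomes are missing, which is at active promoters and at distal elements such as enhancers. Gene-rich, GC-rich DNA usually lies in the interior of the nucleus, whereas gene-poor DNA is often held at the nuclear lamina as heterochromatin. The study asked how loss of HAT1 alters accessibility, and the dense bins lie at the gene-rich end of that range.

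The central 200 bases of 4 dense-bin sites show the kinds of DNA that the results turn on. All are read 5′ to 3′ from the plus strand of GRCm38 (mm10), and capitals mark matches to the motifs searched below other than the E-box. The Tomm40 promoter site (chr7:19715700-19715899) had the highest mean level, and both of its marked motifs are GC boxes. The Lama5 intron site (chr2:180215125-180215324) had the second lowest difference between genotypes among dense-bin sites of at least 16 mean reads, and the lowest of those lies on a chromosome whose sequence is not shown. The Rptor intron site (chr11:119709341-119709540) had the highest difference under the same limit, and weaker sites had differences beyond both. The lowest-value site (chr17:6358436-6358635) lies in the bin with the most sites and has the lowest level of the table in both genotypes.
Tomm40: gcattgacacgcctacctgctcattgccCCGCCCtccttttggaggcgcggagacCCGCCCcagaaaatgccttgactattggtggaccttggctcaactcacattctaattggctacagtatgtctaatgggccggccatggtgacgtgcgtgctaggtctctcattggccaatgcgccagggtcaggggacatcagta
Lama5: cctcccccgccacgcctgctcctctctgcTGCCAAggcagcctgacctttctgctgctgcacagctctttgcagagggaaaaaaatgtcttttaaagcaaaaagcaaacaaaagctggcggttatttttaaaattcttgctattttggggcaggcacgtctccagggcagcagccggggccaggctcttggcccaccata
Rptor: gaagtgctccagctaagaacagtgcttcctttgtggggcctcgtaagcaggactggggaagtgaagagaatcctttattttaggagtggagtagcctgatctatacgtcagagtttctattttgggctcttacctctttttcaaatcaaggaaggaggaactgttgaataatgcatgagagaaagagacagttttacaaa
Lowest-value site: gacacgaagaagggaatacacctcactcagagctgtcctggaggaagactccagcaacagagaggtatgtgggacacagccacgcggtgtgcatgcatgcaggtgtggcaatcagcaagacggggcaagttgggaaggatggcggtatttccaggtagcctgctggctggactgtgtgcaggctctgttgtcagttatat
The first 3 have a central 32-base word that occurs once in the chromosome sequences, and the last has one that occurs 3 times.

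Over the whole table of 229903 sites, the summed normalized reads of HAT1-/- were 94.8% of those of HAT1+/+ and the median log2 difference (HAT1-/- minus HAT1+/+) was -0.06. Promoter sites of the fibroblast markers had a median level of 7.20 in HAT1+/+ and 7.25 in HAT1-/- and were found for 14 of 14 genes, against 4.86 and 4.78 for markers of other cell types, found for 14 of 17. In HAT1+/+ the ranges overlapped, at 2.22 to 9.29 and 2.13 to 6.96. The fibroblast marker median was close to that of all protein-coding genes with a promoter site, 7.21. The Hat1 promoter site had 206.5 normalized reads in HAT1+/+ and 238.9 in HAT1-/-. It lies outside the dense bins, and accessibility at a promoter does not check a deletion.

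Dense-bin sites had the same median difference between genotypes as the other autosomal sites, and a smaller share of them was far less accessible in HAT1-/-. The median level of the dense-bin sites was 4.01 in HAT1+/+ and 3.94 in HAT1-/-, or 16.1 and 15.3 reads. The other 205863 autosomal sites had medians of 3.86 and 3.77, or 14.5 and 13.6 reads. The median difference per site was -0.06 in both sets. Of the dense-bin sites, 563 (2.85%, Wilson 95% interval 2.63 to 3.09%) had a difference of -1 or lower, against 5.11% of all tested sites and 5.34% of the other autosomal sites. A difference of 1 or higher was found for 469 of them (2.38%), against 2.82% of all tested sites and 2.82% of the other autosomal sites. The intervals treat sites as independent and cover counting of sites only. The standard deviation of the difference over sites was 0.486 in the dense bins and 0.572 elsewhere. It was 0.964 in bins of under 25 sites and 0.506 in bins of 150 to under 200. Median levels in the latter were 3.94 in HAT1+/+ and 3.89 in HAT1-/-.

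The share of summed reads kept in HAT1-/-, unlike the median difference, was slightly lower in the dense bins. Dense-bin sites kept 94.0% of their HAT1+/+ reads in HAT1-/-, and the other autosomal sites kept 94.75%. That contrast of -0.746 points is smaller than its SD over chromosomes, 1.95 points. The kept share was lower for promoter sites (93.9% against 95.8%) and intron sites. It was higher for intergenic sites (93.6% against 92.3%) and exon sites. Below 0 lay 56.0% of the dense-bin differences and 55.1% of the others.

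The share of sites at -1 or lower fell with each class of bin density, by large steps at the sparse end and small ones at the dense end. The median difference and the reads kept were instead highest in bins of 100 to under 150 sites. The median difference was -0.60 in bins of under 25 sites, -0.20 in bins of 25 to 49, -0.06 in bins of 50 to 99, -0.04 in bins of 100 to under 150 and -0.06 in bins of 150 to under 200. The share of sites at -1 or lower was 34.7%, 14.0%, 6.11%, 3.89% and 3.10% across those classes, before the 2.85% of the dense bins. Reads kept in HAT1-/- were 67.5% in the sparsest class, 96.4% in bins of 100 to under 150 sites and 94.7% in bins of 150 to under 200. Dense bins therefore had the lowest share of strong losses without having the highest share of reads kept. The Wilson interval of that share, 2.63 to 3.09%, overlapped the 2.97 to 3.24% of bins of 150 to under 200 sites. The share at 1 or higher varied less, from 2.35% in the sparsest class to 3.05% in bins of 50 to 99.

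**Figure D1:**
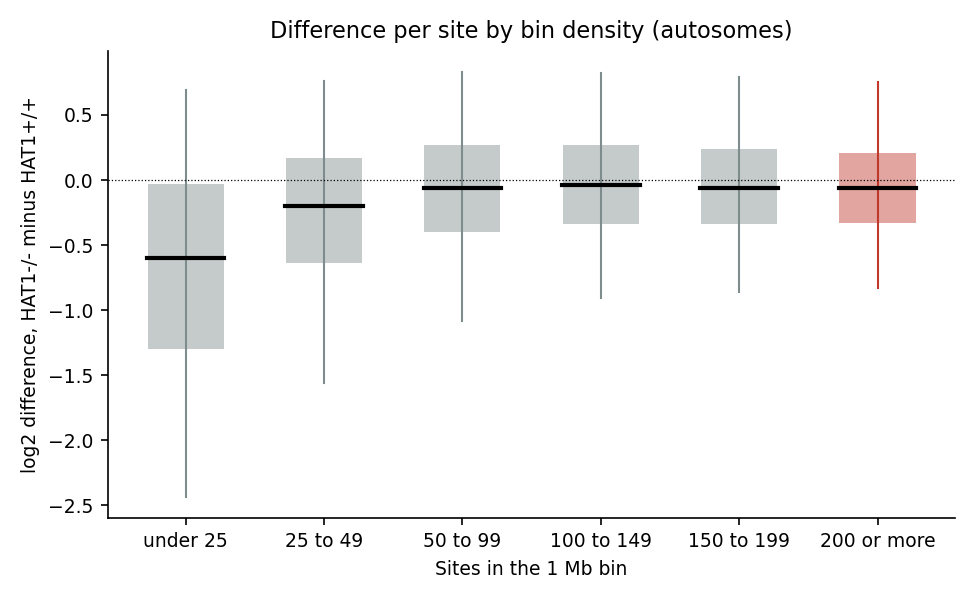
The y axis gives the log2 difference per site (HAT1-/- minus HAT1+/+) and the x axis the number of sites in the 1 Mb bin. The black line is the median, the box the middle 50% and the thin line the 5th to 95th percentile over sites. The dense bins (red) have a median of -0.06, equal to that of bins of 150 to under 200 sites, and the sparsest bins one of -0.60.

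Runs of less accessible sites were absent from the dense bins at the cutoff used, and rare in the next densest class. A moving mean of the difference over 25 neighbouring sites was compared with -0.58. It was below that value at 0 of the 19741 dense-bin sites, where the lowest mean was -0.551. It was below that value at 5100 of the 205863 other autosomal sites and at 5203 of all 229903 tested sites. Of the 62434 sites in bins of 150 to under 200, 55 were below it. The window counts sites and not length, so it spans less DNA where sites are dense. The median gap between neighbouring sites was 2810 bp in dense bins and 31865 bp in bins of under 25 sites.

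At equal read level the differences of dense-bin sites were also less spread than those of the other sites. The autosomal sites were divided into 10 deciles of mean level. Within a decile the other sites, which include those of sparse bins, were not divided by bin density. The share at -1 or lower was smaller for dense-bin sites in all 10, for example 8.45% against 11.9% in the lowest decile, 1.74% against 4.75% in the sixth and 0.245% against 0.895% in the highest. Standard deviations were also smaller in all 10, at 0.752 against 0.839 in the lowest decile and 0.231 against 0.284 in the highest. Median differences were close, at -0.06 and -0.07 in the sixth decile and -0.10 and -0.07 in the highest. In the lowest decile the dense-bin median was 0.12 against 0.01, and 0.06 when only dense-bin sites with a single-copy centre were kept. With at least 16 mean reads, 109 of 9697 dense-bin sites (1.12%) and 3.11% of the others were at -1 or lower.

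**Figure D2:**
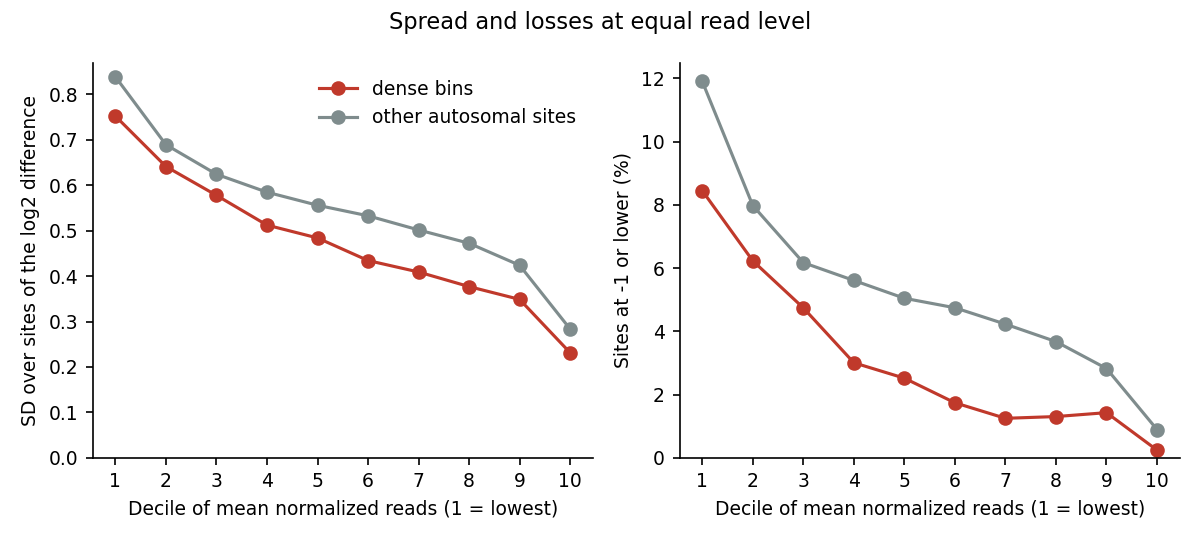
Left, standard deviation over sites of the log2 difference. Right, percent of sites with a log2 difference of -1 or lower, both against the decile of mean normalized reads from 1 (lowest) to 10 (highest). Dense-bin sites (red) lie under the other autosomal sites (grey) in all 10 deciles of both panels.

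The lower share of strong losses was seen on each of the 18 chromosomes that have a dense bin, while the median difference had no common direction. Chromosome 6 has none, chromosome 2 has 12 and chromosome 17 has 11, with 2551 sites. The share at -1 or lower was below that of the other sites of the same chromosome on 18 of 18, with differences of -0.991 points on chromosome 11 to -4.98 points on chromosome 1. Those other sites were not divided by bin density. The HAT1+/+ level was higher in dense bins on 17 of 18, the exception being chromosome 17 with 3.66 against 3.85. The median difference was above that of the chromosome's other sites on 8, below on 7 and equal on 3.

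The 91 bins varied little among themselves. Their median differences ran from -0.16 to 0.10, with 81 below 0, 8 above and 2 at 0, and only 2 bins had more HAT1-/- than HAT1+/+ reads in sum. Medians below 0 were also found in 295 of the 366 bins of 150 to under 200 sites. Of all 2304 other bins with a site, 1755 had one. None of the dense bins had a median under -0.2, compared with 282 of the 376 bins of under 25 sites and 1 of the 366 bins of 150 to under 200. The lowest medians were in the bins at 10 Mb of chromosome 19 and 121 Mb of chromosome 8, both -0.16, and at 141 Mb of chromosome 4, -0.15. In this last bin the level medians were 4.34 in HAT1+/+ and 4.19 in HAT1-/-, and 89.5% of the reads were kept. The highest was at 33 Mb of chromosome 2, 0.10, with 3.58 in HAT1+/+ and 3.70 in HAT1-/-. The bin at 25 Mb of chromosome 14 followed with 0.085 and the bin at 80 Mb of chromosome 18 with 0.08. The 26 bins of 200 to 204 sites, just inside the limit, had medians of -0.13 to 0.10, and the 18 bins of 195 sites up to the limit, just outside, -0.185 to 0.08.

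Neighbouring dense bins formed 68 runs, 54 of them of 1 bin. The longest runs had 4 bins, from 117 to 121 Mb of chromosome 11 with 873 sites and a median difference of -0.05, and from 30 to 34 Mb of chromosome 2 with 837 sites and -0.03. The run from 5 to 8 Mb of chromosome 17 had 720 sites and a median difference of 0.05, on levels of 3.19 in HAT1+/+ and 3.26 in HAT1-/-. Its bins at 6 and 7 Mb have many sites of repeated sequence at the lowest values, described below. Sites with a single-copy centre had medians of 0.07 at 5 Mb, -0.13 at 6 Mb and -0.10 at 7 Mb.

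**Figure D3:**
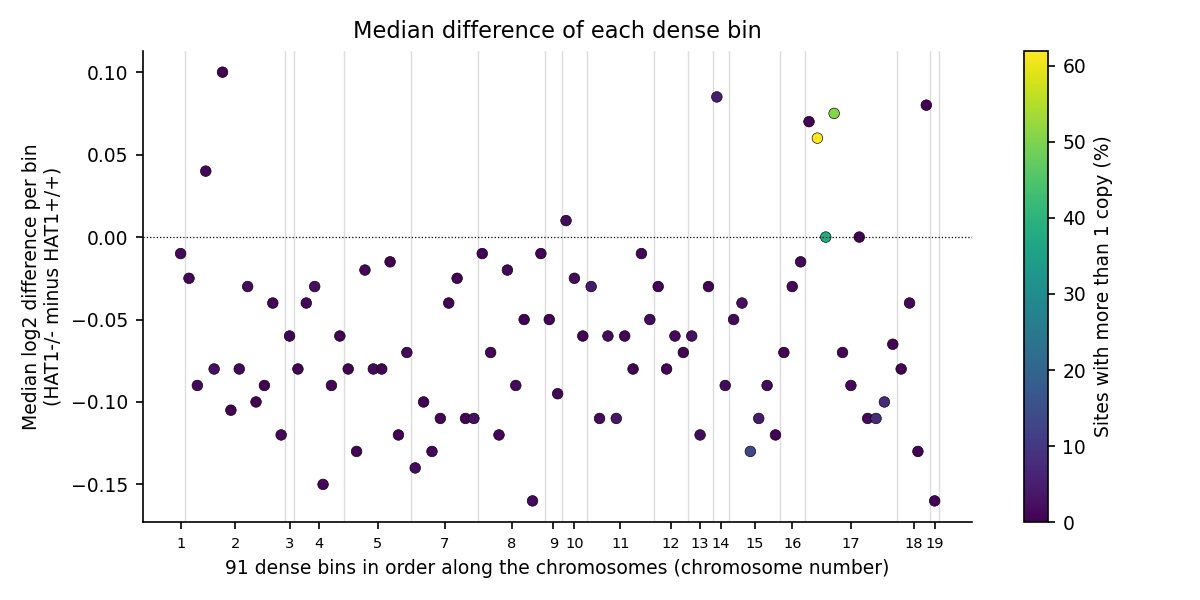
Each point is 1 of the 91 dense bins, placed in order along the chromosomes, with its median log2 difference on the y axis and the percent of its sites whose central 32 bases occur more than once as color. Medians span -0.16 to 0.10, and the 3 bins of high copy share, all on chromosome 17, lie at 0.00 to 0.075.

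A group of 3 of the 91 bins stood apart from the rest in sequence. Sites whose central 32-base word occurs more than once in the chromosomes made up 62.0% of the 297 sites at 6 Mb of chromosome 17, 50.7% of the 280 at 13 Mb and 37.6% of the 202 at 7 Mb, and at most 13.4% in any other dense bin. The first 2 are the bins with the most sites of all. Of the 184 multi-copy sites at 6 Mb, 71 had the lowest value of the table in both genotypes, which is -0.61 (0.655 reads) in HAT1+/+ and -0.43 (0.742 reads) in HAT1-/-. A site at both lowest values has a difference of 0.18 by construction. The multi-copy sites of this bin had a median difference of 0.18, and its 113 single-copy sites one of -0.13. At 13 Mb the medians were 0.18 and -0.03, and at 7 Mb 0.18 and -0.10.

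Among all dense-bin sites, 647 (3.28%) were multi-copy, against 2.09% of the other autosomal sites. Their median levels were 1.67 in HAT1+/+ and 1.62 in HAT1-/-, against 4.04 and 3.98 for the 19094 single-copy sites. The lowest value in at least 1 genotype was found at 213 dense-bin sites (1.08%) and 923 of the others (0.448%), and 94.95% of all sites with it were multi-copy. The part of read placement in these levels was not tested. Counting single-copy sites alone, 77 bins still had 200 or more sites, and without the 3 bins of chromosome 17 the median level was higher than elsewhere by 0.18 in HAT1+/+ and 0.21 in HAT1-/-.

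**Figure D4:**
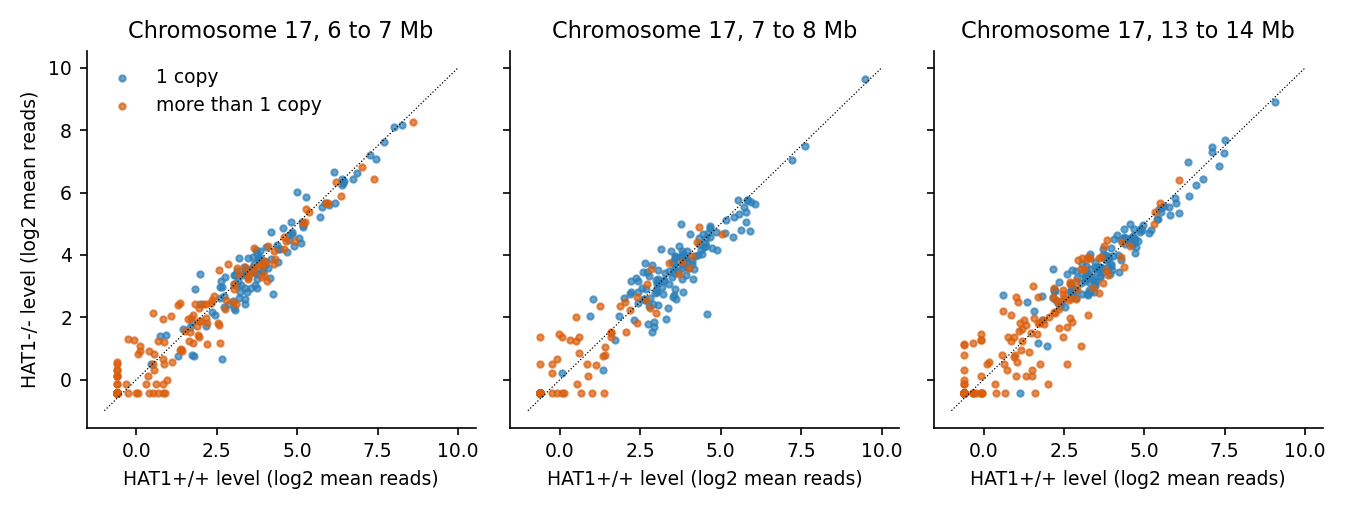
Sites of the dense bins at 6, 7 and 13 Mb of chromosome 17, with the HAT1+/+ level on the x axis and the HAT1-/- level on the y axis (log2 mean normalized reads) and equality as a dotted line. Multi-copy sites (orange) crowd at low levels, with their lowest values at -0.61 and -0.43, and single-copy sites (blue) lie along the line with medians of 3.61 to 3.69 in HAT1+/+.

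The dense bins were rich in genes and in GC. They had a mean of 37.4 gene starts per bin, 20.98 of them protein-coding, compared with 20.6 and 8.12 in the other bins with a site. Their mean GC content was 48.9% against 41.7%, and interspersed and simple repeats, as masked in the reference, covered 25.2% against 33.7%. Bins of 150 to under 200 sites were closer, with means of 33.3 gene starts, 16.9 protein-coding starts, 46.2% GC and 27.3% repeats. The sites themselves had a median GC content of 54.3% against 49.7%, and 52.4% in bins of 150 to under 200 sites. Median width was 259 bp against 254 bp. The median gap between neighbouring sites was 2810 bp against 4501 bp, which follows from the rule.

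Promoters took a larger share of the dense-bin sites and intergenic sites a smaller one. Within 3 kb of a transcript start lay 7379 (37.4%) of the dense-bin sites against 27.4% of the others, and 23.2% against 32.9% were intergenic. In bins of 150 to under 200 sites, 34.1% were promoter sites and 26.7% intergenic. Promoter sites in dense bins had a median level of 4.48 in HAT1+/+ and 4.36 in HAT1-/- and a median difference of -0.08, against -0.07 for other promoter sites. Intergenic sites in dense bins had 3.82 and 3.77 and a median difference of -0.05. The share at -1 or lower separated most among intergenic sites, at 2.88% of the 4577 in dense bins, 3.58% in bins of 150 to under 200 sites and 7.30% in all other autosomal bins. Among promoters it was 2.41% in dense bins, 2.29% in bins of 150 to under 200 sites and 3.18% in all other autosomal bins. Promoter sites in dense bins thus had no lower share than those of the next densest class.

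Across the 91 bins, Pearson's r of the median difference was -0.376 with the HAT1+/+ level, 0.331 with the multi-copy share, -0.270 with bin GC and 0.093 with the number of sites. Spearman's rho was -0.197, 0.034, -0.236 and -0.072. With single-copy sites alone, r with the HAT1+/+ level was -0.177 and with bin GC -0.155. These bins share the same libraries, and the coefficients are descriptions. The difference subtracts the HAT1+/+ level, and sites at both lowest values have a difference of 0.18 by construction. The coefficients with the HAT1+/+ level and the multi-copy share are therefore partly built in.

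Of the 9 short motifs searched, the GC box, the CTCF part and the ETS word were in a larger share of dense-bin sites than of the other autosomal sites, and the AP-1, TEAD, RUNX and NFI words in a smaller one. Matches were counted on both strands of the central 200 bases, where N is any base. The GC box GGGCGG, bound by SP and KLF factors, was in 13.1% of dense-bin sites, 8.18% of the other autosomal sites and 8.66% of all tested sites, and in 10.8% of sites in bins of 150 to under 200. AGGGGGC, a part of the CTCF core that can overlap a G-rich GC box, was in 5.96%, 4.02% and 4.20%, and in 5.27% of sites in bins of 150 to under 200. The ETS word CCGGAAG was in 2.32%, 1.75% and 1.79%, and in 2.27% of sites in bins of 150 to under 200. TGANTCA, bound by AP-1 (dimers of FOS and JUN proteins at many fibroblast enhancers), was in 17.5%, 23.5% and 23.0%, and in 19.6% of sites in bins of 150 to under 200. The TEAD word GGAATG was in 13.4%, 15.7% and 15.6%, the RUNX word TGTGGTT in 5.45%, 6.75% and 6.64%, and the NFI half-site TTGGCA in 11.2%, 12.8% and 12.7%. In bins of 150 to under 200 sites these words were in 14.3%, 6.07% and 12.2%. The E-box CANNTG (69.0%, 69.2% and 69.2%) and the YY1 word AAGATGGC (1.14%, 1.15% and 1.16%) were alike. Median GC content was 54.3% in dense-bin sites and 49.7% in the others, and the part of base composition in these shares was not tested.

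The AP-1 and GC box contrasts were present within a class of site. AP-1 words were in 19.7% of dense-bin sites outside promoters against 26.3% of the others, and GC boxes in 22.8% of dense-bin promoter sites against 19.2%. Dense-bin sites with a TEAD word had a median difference of -0.11 and those without -0.06, while with and without an AP-1 word it was -0.03 and -0.07. Outside the dense bins these pairs were -0.11 and -0.05 for TEAD and -0.05 and -0.06 for AP-1. A match is a description of letters and not of a bound factor.

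**Figure D5:**
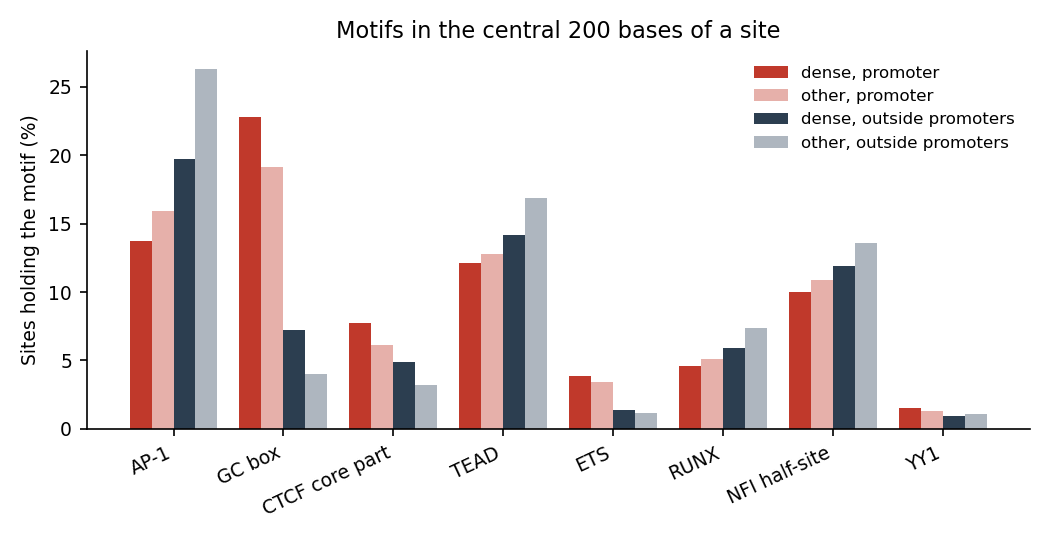
Percent of sites with each motif in the central 200 bases, for promoter sites (red, pale red) and sites outside promoters (dark, pale grey) in dense bins and in other autosomal bins. The E-box, in 69.0% of dense-bin sites, is left out for scale. AP-1 bars are shorter and GC box bars taller in dense bins in both classes.

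The dense bins have 1906 of the 20780 autosomal protein-coding gene names (9.17%). A site within 1 kb of the start was found for 90.5% of them against 74.8% of genes elsewhere, with the highest site of a gene used. Because bins were chosen for their number of sites, this contrast follows in part from the rule. Of the 1086 autosomal olfactory receptor genes, 89 had such a site and 2 lie in dense bins. Median levels of these promoter sites were 7.16 in HAT1+/+ and 7.06 in HAT1-/-, against 7.22 and 7.12 elsewhere. Levels below are reads per site and not per base.

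The highest levels in dense bins were at promoters and differed little between genotypes. The Tomm40 site (chr7:19715321-19716279), at the gene of a mitochondrial import channel, had 1314 reads in HAT1+/+ and 1296 in HAT1-/-. The Hdgfl2 site (chr17:56078905-56079844) had 1235 and 1269. Opa3, a mitochondrial protein gene in the same bin as Tomm40, had 1075 and 1017. The site shared by Mob3a and Izumo4 had 1031 and 1024, and Ptprs, a receptor phosphatase gene, 1046 and 949. All 5 differences were between -0.14 and 0.04.

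The named extremes of the difference were at far weaker sites. Of those with at least 16 mean reads, the lowest difference was -1.80 at an intron site on chromosome 18, with 26.4 reads in HAT1+/+ and 7.57 in HAT1-/-. A Lama5 intron site, in a laminin chain gene, had 33.4 and 9.65. A promoter site of Clasrp, a splicing factor gene, had 36.5 and 11.2 reads, and one of Inf2, a formin gene, 68.1 and 20.97. The highest differences were 1.40 at an intron site of Rptor (11.8 and 31.1 reads), which encodes an mTOR partner, 1.35 near Slc6a5 (14.0 and 35.8) and 1.33 in an intron of Dpysl4 (10.4 and 26.2). Around the 5 lowest and 5 highest sites, the mean difference of 25 neighbouring sites lay between -0.395 and 0.161.

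Of the 10 listed AP-1 genes, 3 lie in dense bins, Fosb, Junb and Jund. Junb had a promoter level of 9.34 in HAT1+/+ and 9.32 in HAT1-/-, Jund 9.31 and 9.29, and Fosb 8.82 and 8.88. None of these promoters differed by more than 0.06.

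Of 31 mesenchymal transcription factor genes, 8 lie in dense bins, with differences of -0.36 to 0.08. Foxc2, a forkhead factor gene, had 164 reads in HAT1+/+ and 128 in HAT1-/-. Tead1, whose protein works with YAP, had 7.39 and 7.13, Tead3 7.57 and 7.38, and Tead2 5.54 and 5.51. Snai1, of the epithelial-mesenchymal transition, had 7.94 and 7.81. Prrx2 and Foxf1 were at -0.24 and -0.19, and Nfix at 0.08.

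Extracellular matrix genes had 4 of 29 autosomal members in dense bins. Col4a1 and Col4a2, basement membrane collagen genes that diverge from a shared promoter, had 7.60 and 7.17 at the same site. Timp2, a metalloproteinase inhibitor gene, had 7.59 and 7.45, and Col5a1 7.11 and 7.13. Pdgfrb, with Col5a1 the only fibroblast markers in dense bins (2 of 14), had 7.91 and 7.59. None of the 17 markers of other cell types lies there.

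Nuclear lamina genes had 3 of 10, with Sun1, a linker to the cytoskeleton, at 8.45 and 8.56, Lemd2 at 7.49 and 7.38, and Lmnb2, a B-type lamin, at 6.05 and 6.03. Ribosomal protein genes had 14 of 76, with a median difference of -0.13 and a range of -0.27 to 0.03. Rpl12 was lowest, with 7.13 and 6.86 at a site whose centre has 7 copies, and Rpl8 highest, with 6.28 and 6.31. Of the families listed, dense bins had 11 of 358 genes named Zfp, 2 of 1086 olfactory receptor genes and 0 of 39 Hox genes, against 9.17% of all protein-coding genes.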

How the data were processed

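ATAC-Seq libraries of 3 HAT1+/+ and 3 HAT1-/- primary MEF lines were aligned by the authors to mm10 with Bowtie2 in the ENCODE ATAC-Seq pipeline and peaks were called with MACS2, per the labels and methods. The deposited values are log2 mean normalized reads per genotype, made by the authors with DiffBind 2.14.0. The consensus rule and normalization are not given in the sources used here, depth per line is unknown, and read placement for repeated sequence is not given. The table also has a mean over both genotypes, a fold change, a p-value and an FDR from the authors' comparison, which were not used.

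The members and gene lists were chosen with earlier results of these data known. A difference is HAT1-/- minus HAT1+/+ log2 level, and a call is -1 or lower, or 1 or higher. Sites were annotated with GENCODE M21. Sequence came from the RefSeq GRCm38 FASTA, the assembly of mm10. A site is multi-copy where its central 32 bases occur more than once in chromosomes 1 to 19, X and Y on either strand. A gene promoter site is the highest site within 1 kb of a protein-coding start. Named sites are the 5 highest in level and the 5 lowest and highest in difference among sites of at least 16 mean reads, and listed genes are those in dense bins. With 1 mean per genotype no test was made. Alternatives were compared with the Wilson 95% interval for shares and with the SD over chromosomes for other values, which is no replicate error. The bin rule and motif search were tested on simulated data. Python 3.11.15, pandas 2.3.3, numpy 2.4.6 and scipy 1.17.1 were used.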

Additional observations from a re-analysis of the deposited data

How the results depend on the processing

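No paired analysis was possible because the table has genotype means, so no line could be left out. Of 185 alternative values, 157 stayed within the spread given under the processing, 25 moved beyond it and 3 changed sign. The difference in median difference between dense-bin and other autosomal sites stayed between -0.02 and 0.03 in 14 alternatives. All 3 sign changes came with a threshold of 250 sites, where 2 of the 4 bins left are multi-copy bins of chromosome 17. The level contrast there was -0.20 in HAT1+/+ and -0.21 in HAT1-/- in place of 0.15 and 0.17, and the share at 1 or higher was 0.156 points above the other sites (2.93%), with 49.1% promoter sites (20.98 points above), and 53.5 gene starts per bin (32.3 above). With at least 16 mean reads, 1.12% were at -1 or lower, 0.258% at 1 or higher, and the lowest bin median was -0.205. With the genotypes scaled to equal totals these shares were 2.21% and 2.87% and 99.3% of reads were kept, and at a limit of 0.58 the shares were 11.9% and 8.56%. Against bins of 50 to under 200 sites, the share at -1 or lower was below by 1.32 points (-1.32) in place of 2.48 (-2.48). Promoter shares were 34.9% at a threshold of 150, 39.7% with shifted bins, 41.1% with 2 Mb bins and 23.2% within 1 kb. GC content was 52.9% at a threshold of 150. Gene starts per bin were 18.6 in 0.5 Mb bins, 86.2 in 2 Mb bins (44.99 above the others) and 20.98 for protein-coding genes. The lowest mean over 51 sites was -0.378, and AP-1 words were in 10.7% of central 100 bases. Membership depended on where bins start, since 43.9% of the dense-bin sites were members with bins shifted by 0.5 Mb. The choices on single-copy sites and on the 3 bins of chromosome 17 were added after seeing the data, and all their values stayed within the spread. Gene starts in 0.5 and 2 Mb bins are counts over unlike lengths. The limit of 0.58, the 1 kb promoter, protein-coding genes alone and the central 100 bases change a share or count by definition. The cause of the remaining shifts was not tested.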
